A study of Mus musculus with 6 samples.

Results

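Calmodulin is the small protein through which most animal cells read calcium: it binds calcium with EF-hand loops, changes shape and then switches on kinases, the phosphatase calcineurin and many other partners. Among its relatives in the mouse, Calm4 (also named Scarf), Calm5 (Scarf2) and Calml3, are known as calmodulin-like genes of skin and other stratified epithelia, where a rise in calcium accompanies the exit of keratinocytes from the basal layer. Here Calm4, Calm5 and Calml3 are described beside the calmodulin genes Calm2 and Calm3, which are expressed in nearly all cells and encode the same protein. The 5 genes were taken by symbol and are read by 9 of the 41174 probes of the array, out of 27573 gene names in all. They were selected on the difference in signal between the Anakinra and PBS arrays, so that difference is given for them as a description and not as a test.

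Primary keratinocytes from the epidermis of newborn wild type mice, isolated together with hair follicle buds, were infected with an adenovirus at 10 particles per cell to carry the v-ras-Ha oncogene; every culture in the series carries it. At 5 hours, the interleukin-1 receptor antagonist Anakinra (5 ug/ml) was added to 3 cultures and PBS, the control, to the other 3. Cells stayed in culture for 3 days more, with the antagonist renewed after 2 days, and each culture gave RNA for 1 single-colour Agilent array. The comparison shows how transcript levels in ras-transformed cells differ when the interleukin-1 receptor is blocked. No label says whether the cultures came from separate mice or isolations; p-values therefore measure only how these 6 cultures scatter, and that scatter may be technical.

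The clearest sequence feature of the group lies in front of Calm4 and Calm5, which are neighbours on chromosome 13. RefSeq promoter windows (build GRCm38.p6, 250 bases before to 50 after the annotated start, 5′ to 3′ on the gene's strand) matched 3 of the 5 members: Calm3, Calm4 and Calm5. The windows of Calm4 at chr13:3837507-3837806 and Calm5 at chr13:3853923-3854222, both on the plus strand, are printed because they are near copies of each other, with capitals for the bases they share.
Calm4: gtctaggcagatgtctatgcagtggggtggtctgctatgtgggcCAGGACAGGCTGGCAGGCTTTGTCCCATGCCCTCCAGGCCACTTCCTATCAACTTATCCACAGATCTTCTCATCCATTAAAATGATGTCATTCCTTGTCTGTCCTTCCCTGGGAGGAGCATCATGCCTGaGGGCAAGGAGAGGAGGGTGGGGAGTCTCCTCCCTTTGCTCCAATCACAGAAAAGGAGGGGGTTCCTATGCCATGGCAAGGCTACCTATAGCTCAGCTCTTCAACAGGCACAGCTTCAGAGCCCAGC
Calm5: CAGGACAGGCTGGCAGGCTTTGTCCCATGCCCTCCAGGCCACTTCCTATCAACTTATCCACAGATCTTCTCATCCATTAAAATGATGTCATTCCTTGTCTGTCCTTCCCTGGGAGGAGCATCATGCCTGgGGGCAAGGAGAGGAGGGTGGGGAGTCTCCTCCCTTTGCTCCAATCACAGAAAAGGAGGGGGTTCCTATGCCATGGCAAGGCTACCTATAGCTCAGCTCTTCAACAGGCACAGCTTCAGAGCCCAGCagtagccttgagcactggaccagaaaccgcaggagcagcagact
Shifted by 44 bases, the windows overlap over 256 bases and are identical at 255 of them. The single difference is A174G, counted from 1 at the 5′ end of the Calm4 window, with the Calm4 base first. Among 32851 promoter windows, no window of another gene shared even a stretch of 20 bases with the common sequence on either strand. Because of the shift, the same sequence sits 44 bases farther from the annotated start of Calm5 than from that of Calm4.

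The window of Calm3 at chr7:16923983-16924282, on the minus strand, is shown as a contrast, with each CG step in capitals.
Calm3: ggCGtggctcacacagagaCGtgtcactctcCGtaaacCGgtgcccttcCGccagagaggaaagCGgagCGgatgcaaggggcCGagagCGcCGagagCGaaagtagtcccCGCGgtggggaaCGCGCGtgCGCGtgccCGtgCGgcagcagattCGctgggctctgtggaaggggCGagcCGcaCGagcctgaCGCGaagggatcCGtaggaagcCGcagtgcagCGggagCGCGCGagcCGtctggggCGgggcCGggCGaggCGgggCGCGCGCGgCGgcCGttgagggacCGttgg
It holds 44 CG steps at a GC content of 72.0%, more CG steps than 97.8% of the promoter windows, whose median is 7. Calm4 has 0 and Calm5 has 1, at GC contents of 54.3% and 54.7%. Next, 6 short motifs, chosen after the sequences were seen, were then searched on both strands. The NF-kB motif (GGGA, then 4 bases of any kind, then CC) occurs once in each of the windows of Calm4 and Calm5, as GGGAGTCTCC starting 57 and 101 bases before the annotated start; 20.7% of all windows hold a match. The CRE letters TGANGTCA occur once in each, as TGATGTCA (8.83% of all windows), and so do the CCAAT letters (37.4%). The AP-1 letters TGANTCA (7.81%) and the TATA letters TATAAA (13.6%) occur in none of the 3, the E-box letters CANNTG (72.3%) occur once, in Calm4, and the Calm3 window holds none of the 6 motifs. These matches describe letters only and were not tested as binding sites.

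In the cultures, the 3 genes of chromosome 13 had higher signals with Anakinra and the 2 ubiquitous calmodulins did not. Calm5 differed most, at 5.76-fold, followed by Calml3 at 2.91-fold and Calm4 at 1.66-fold. In a limma fit over 16493 genes all 5 members were above background, and 3 of the 5 passed an adjusted p of 0.05, all 3 of them higher with Anakinra. Of all genes tested 1.77% passed, 0.970% as higher and 0.800% as lower; since this contrast helped to choose the members, nothing is read from the count. Signals are given below as processed intensity, the spot brightness after background subtraction, and as scaled log2, for which the log2 of each array's 75th percentile was subtracted; intensities of different probes are not comparable with each other.

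Calm5 is read by 1 probe, placed by the array design at chr13:3853913-3853972 of mouse build mm8. Its intensity was 98.6, 107 and 155 in PBS replicates 1, 2 and 3, and 726, 870 and 667 in Anakinra replicates 1, 2 and 3. Every Anakinra culture lay far above every PBS culture, with a gap of 2.02 on the scaled log2 axis between the lowest Anakinra and the highest PBS value. The scaled log2 level was -3.01 ± 0.27 (SD, n = 3) in PBS and -0.49 ± 0.18 (SD, n = 3) in Anakinra, a log2 change of 2.53 ± 0.17 (SE). Only 2 of the genes tested had a larger positive change. The probe was well above background on all 6 arrays, though dim in PBS, and with normexp background correction the change was 2.07. Probe sequences are not used here, and whether the Calm5 probe also binds the related Calm4 transcript was not tested.

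Calml3, the mouse counterpart of the human epithelial calmodulin-like protein CALML3, also has 1 probe, at chr13:3802177-3802236 of mm8. Its intensity was 1906, 1770 and 2356 in PBS and 6331, 7520 and 5590 in Anakinra, in replicate order. The groups again did not overlap, and the lowest Anakinra value was 1.16 above the highest PBS value on the scaled log2 axis. Its level was 1.07 ± 0.20 (SD, n = 3) in PBS and 2.61 ± 0.20 (SD, n = 3) in Anakinra, a log2 change of 1.54 ± 0.15 (SE). Of the 16493 genes, 31 had a larger positive change.

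Calm4 is read by 2 probes, at chr13:3837682-3837741 and chr13:3837330-3837389 of mm8. The intensity of probe 1 was 83152, 85263 and 89921 in PBS and 159094, 170178 and 145417 in Anakinra. That of probe 2 was 54553, 54280 and 61042 in PBS and 113244, 102745 and 89282 in Anakinra. Both probes separated the groups, by 0.50 and 0.41 on the scaled log2 axis, and no spot was saturated. The changes of the 2 probes were close, 0.73 ± 0.09 (SE) for probe 1, which stands for the gene, and 0.70 for probe 2. Scaling each array to its median in place of the 75th percentile, which moves the median change of all genes from 0.01 to -0.32, put Calm4 at 0.40 with overlapping groups, whereas Calm5 (2.20) and Calml3 (1.21) still separated.

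The 3 genes thus differed in the size of the change. Against Calm4 on the same array, Calm5 gained 1.80 on the log2 scale, with values of 1.74, 1.90 and 1.75 in Anakinra replicates 1, 2 and 3. Its gain against Calml3 was 0.98, at 0.96, 0.97 and 1.02, and Calml3 gained 0.81 against Calm4. Such within-array differences are the same under any scaling by 1 constant per array, though not under quantile normalization or another background correction. With normexp the change was 2.07 for Calm5, which is dim in PBS, 1.55 for Calml3 and 0.78 for Calm4. Values in Anakinra were ordered alike in Calm5 and Calml3, with replicate 2 highest and replicate 3 lowest.

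The ubiquitous calmodulins had small differences of the opposite sign. For Calm2, probe 2, which stands for the gene (chr17:87341902-87341961 of mm8), had intensities of 59238, 74727 and 70736 in PBS and 67950, 65405 and 72755 in Anakinra. Its log2 change was -0.13, with a 95% interval from -0.34 to 0.08, and that of probe 1 was -0.05. On the scaled axis the Anakinra values of probe 2 lay below those of PBS, but by 0.0063 only, and with normexp background correction they overlapped. Calm3 has 3 probes on chromosome 7. The brightest, at chr7:16073876-16073895 of mm8, had intensities of 10101, 11676 and 11646 in PBS and 11434, 11373 and 9024 in Anakinra. Its change was -0.22, with a 95% interval from -0.53 to 0.09. The other two probes were at 0.03 and -0.16, so the probes of Calm3 did not share a sign. With median scaling Calm2 was at -0.46 and Calm3 at -0.55. In the main scaling the intervals of the probes that stand for the 2 genes leave room for a modest decrease and for almost no increase. Neither covers the change of Calm4, Calm5 or Calml3. The Calm3 probe at 0.03 had a wider 95% interval, from -0.37 to 0.44, which leaves room for an increase of Calm3.

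**Figure D1:**
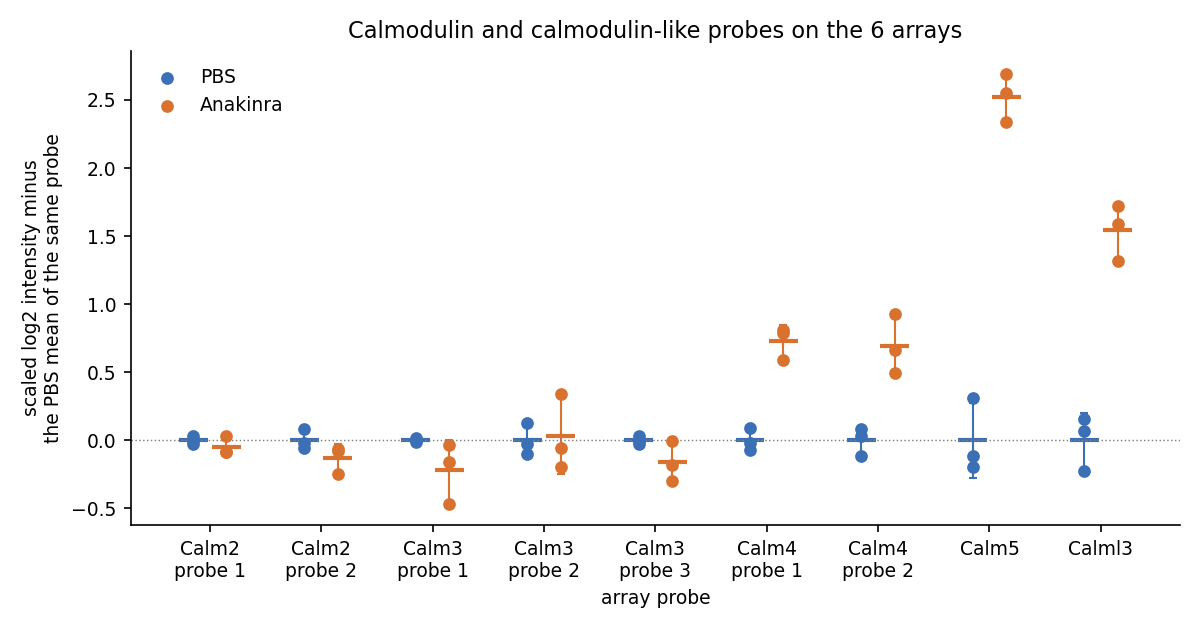
Scaled log2 intensity of each of the 9 probes on each array, minus the PBS mean of the same probe (vertical axis, log2 units), for PBS (blue) and Anakinra (orange); points are cultures, horizontal bars means and whiskers SD, n = 3 per group. The Calm4, Calm5 and Calml3 probes are separated between groups, at mean differences of 0.73 and 0.70, 2.53 and 1.54, while the Calm2 and Calm3 probes stay between -0.22 and 0.03.

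The differences were also read within slides and without single cultures, again as a description. PBS 2, PBS 3 and Anakinra 1 shared slide 1, and the other 3 arrays shared slide 2, so each slide has 1 group with a single array. Calm5 differed by 2.49 within slide 1 and 2.63 within slide 2, Calml3 by 1.62 and 1.45, and Calm4 by 0.85 and 0.60. When slide entered the fit as a block, 0.321% of all genes passed. Calm5 was only just under the threshold in that fit, and Calml3 and Calm4 did not pass. Among the 6 fits that each leave out 1 culture, Calm5 passed in 4 (not without PBS 1 or PBS 2), Calml3 in 2 (without Anakinra 2 and without Anakinra 3) and Calm4 in 1 (without Anakinra 3), with changes from 2.43 to 2.68, 1.43 to 1.65 and 0.69 to 0.80.

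**Figure D2:**
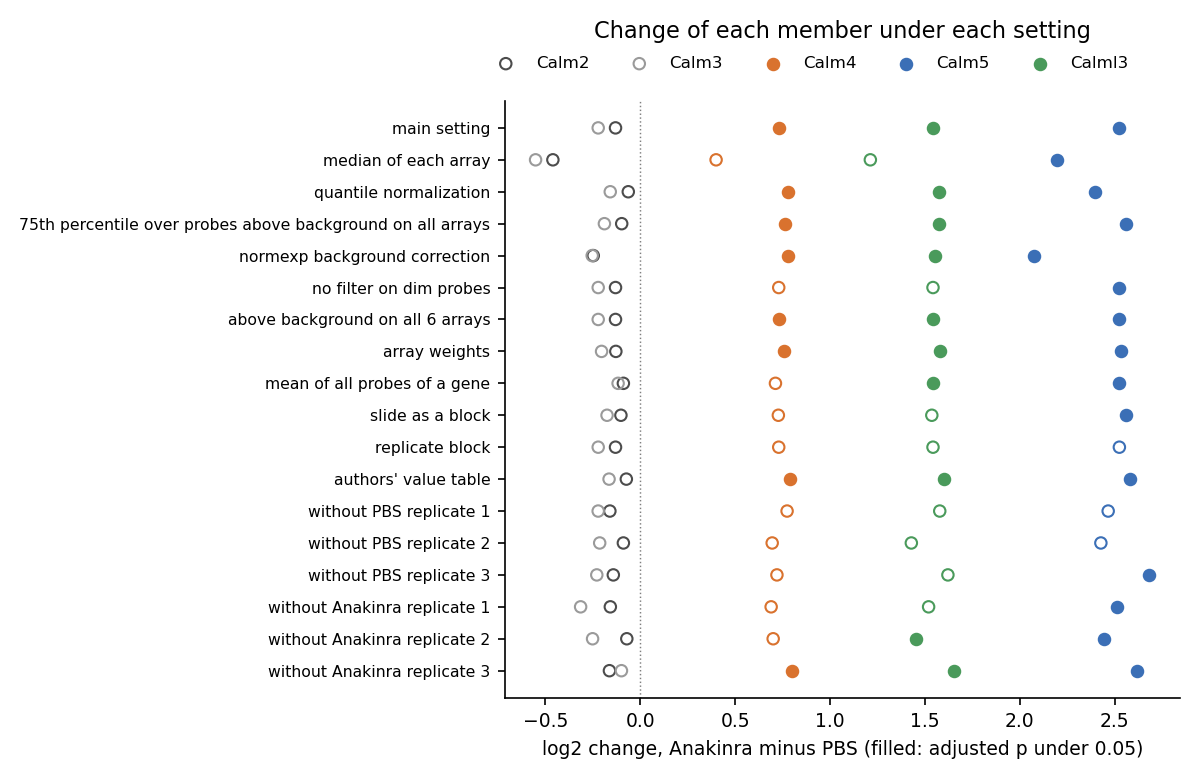
Log2 change of each member (horizontal axis, Anakinra minus PBS) in the main setting and under each of 17 other processing settings or sample sets (rows); filled points passed an adjusted p of 0.05, open points did not. The direction of each member is the same in every row, and Calm5 ranges from 2.07 to 2.68, Calml3 from 1.21 to 1.65 and Calm4 from 0.40 to 0.80.

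In RefSeq's gene order on chromosome 13, Calml3, the non-coding Gm40655, Calm4 and Calm5 follow each other. Of the 3 nearest annotated genes on either side, Asb13 and Net1 were tested. Asb13, which encodes a substrate adaptor of ubiquitin ligases, is separated from Calml3 by Gm35190 and was at 0.04 ± 0.08 (SE, limma adjusted p = 0.859), with overlapping groups, and at -0.29 with median scaling. Net1, which encodes an exchange factor for the GTPase RhoA, follows Calm5 directly. Its scaled log2 level was -0.31, -0.25 and -0.30 in PBS and 0.39, 0.75 and 0.17 in Anakinra, at 0.72 ± 0.16 (SE); it did not pass (adjusted p = 0.110), though the groups did not overlap, as in 26.2% of all genes. Gm20277, Gm35190, Gm40655 and Tubal3 have no probe under those names, and Ucn3 was above background on 1 array only.

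**Figure D3:**
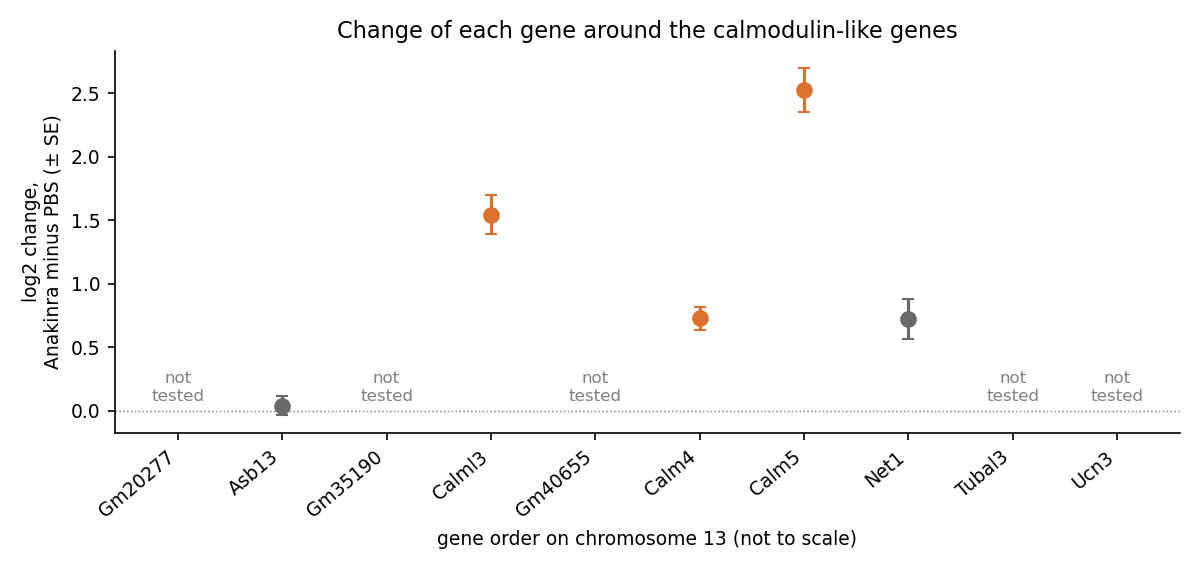
Log2 change with its SE (vertical axis, Anakinra minus PBS, n = 3 per group) for the genes around the calmodulin-like genes, in their order on chromosome 13 and not to scale; members are orange and other genes grey. Calml3, Calm4 and Calm5 are at 1.54, 0.73 and 2.53, the next gene Net1 at 0.72 and Asb13 on the other side at 0.04.

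Other genes of calcium and calmodulin signalling passed the test about as often as genes in general. Over 5 lists with 131 tested genes, members left out, 2 were higher, 0 lower and 129 did not pass, beside 1.77% of all genes that passed in either direction. The median change was 0.06, against 0.01 over all genes. Both that passed are kinases activated by calmodulin. Dapk2, a death-associated protein kinase, had scaled log2 levels of 2.54, 2.43 and 2.38 in PBS and 3.17, 3.23 and 3.19 in Anakinra. It rose by 0.75 ± 0.07 (SE, adjusted p = 0.0153), but did not pass once slide was a block (adjusted p = 0.0599), with median scaling (0.42, adjusted p = 0.868), or without any single culture other than Anakinra 2. Camk1d, a calmodulin-dependent kinase of the CaMKI family, rose by 0.53 ± 0.08 (SE, adjusted p = 0.0435), but was dim, at mean intensities of 88.6 in PBS and 141 in Anakinra. The call was lost once slide was a block (adjusted p = 0.149), with quantile normalization (0.16, adjusted p = 0.840), and in each of the 6 fits without 1 culture. It was also lost with normexp (0.34, adjusted p = 0.124) and with the mean of all its probes (0.41, adjusted p = 0.441). The other 20 of the 22 tested kinase genes and their inhibitors did not pass, and the list's median was 0.01.

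Close relatives of calmodulin showed no call among 11 tested. Calml4, a calmodulin-like gene outside the chromosome 13 group, was dim and scattered, at intensities of 33.2, 41.2 and 79.7 in PBS and 41.0, 198 and 224 in Anakinra. Its change of 1.21 ± 0.72 (SE, adjusted p = 0.487) was smaller than 2 SE. The centrin gene Cetn4 was at 0.39 ± 0.09 (adjusted p = 0.108) and Necab2, a neuronal EF-hand gene, at 0.49 ± 0.15 (adjusted p = 0.219). Both were dim, at mean intensities of 135 in PBS and 196 in Anakinra for Cetn4 and of 55.8 and 87.1 for Necab2. With quantile normalization Cetn4 was at 0.18 and Necab2 at 0.04, and with median scaling they were at 0.06 and 0.16. The list's median was 0.25 in the main scaling.

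None of the 16 tested genes of calcineurin and NFAT passed either, with a median of 0.02. The calcineurin catalytic subunit genes Ppp3cb and Ppp3cc were at -0.44 ± 0.11 (adjusted p = 0.148) and -0.31 ± 0.07 (adjusted p = 0.120) by their brightest probes. With the mean of all probes they were at -0.16 (adjusted p = 0.403) and -0.09 (adjusted p = 0.919). The third catalytic gene, Ppp3ca, was at 0.05 with overlapping groups. Among 47 other calmodulin partners the median was 0.07 and none passed. The smallest p-values belonged to Myo1d, an unconventional myosin that carries calmodulin as a light chain, at -0.52 ± 0.10 (adjusted p = 0.0858), and to the calponin Cnn1, at 0.85 ± 0.16 (adjusted p = 0.0808); among genes above background on all 6 arrays both passed (adjusted p = 0.0449 and 0.0374). Myo10, the unconventional myosin known to bind the human CALML3 protein, was at -0.08 (adjusted p = 0.862). Of 35 calcium channel and pump genes none passed, with a median of 0.06; the secretory-pathway calcium pump Atp2c2 was at 0.35 ± 0.08 (adjusted p = 0.122) and the mitochondrial exchanger Slc8b1 at 0.24 ± 0.08 (adjusted p = 0.221), or at -0.09 with median scaling.

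Some genes of the differentiating upper epidermis were also higher with Anakinra. Of 35 tested suprabasal genes 13 were higher, 0 lower and 22 did not pass, with a median of 0.46; earlier results on such genes in these arrays were known, so the list is no independent support. The keratin Krt1 had scaled log2 levels of 1.27, 0.81 and 1.38 in PBS and 3.48, 3.71 and 3.31 in Anakinra. The desmosomal genes Dsc1 and Dsg1a rose by 1.23 ± 0.11 (SE, adjusted p = 0.0125) and 1.78 ± 0.15 (adjusted p = 0.0124), and the cross-linking enzyme Tgm1 by 0.71 ± 0.07 (adjusted p = 0.0151). A slide block left 0 of the 35 past the threshold. All 3 Anakinra values lay above all PBS values in 27 of the 35, against 12.5% of all genes. In 17 genes of the basal layer the median was 0.12 and none passed. Since these are bulk cultures, a larger share of differentiating cells and more RNA per cell cannot be told apart.

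**Figure D4:**
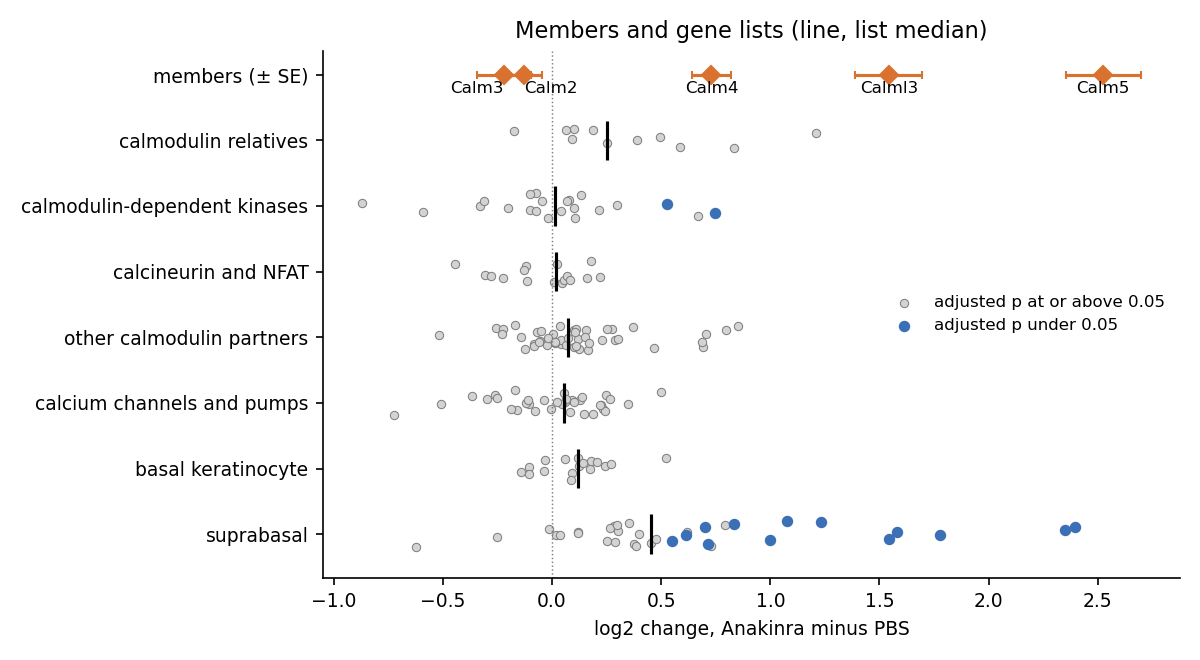
Log2 change (horizontal axis, Anakinra minus PBS) of the 5 members with SE and of every tested gene in 7 gene lists; blue points passed an adjusted p of 0.05, grey points did not, and black lines are list medians. Calm4 and Calml3 lie within the range of the called suprabasal genes, Calm5 lies above the highest of them, Krt10 at 2.40, Calm2 and Calm3 near 0, and only Dapk2 and Camk1d are called among the calmodulin and calcium lists.

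The genes whose values followed the members most closely over the 6 arrays were taken from 2045 genes above background on all arrays with an SD of at least 0.3. For Calml3 they were Ly6g6e, Krt10, Krt1, Klk5 and Tdh, at Pearson r from 0.9976 to 0.9995. For Calm5 they were Slc46a2, Samhd1, Tprg, Sbspon and Gsdmc3, at r of 0.998 each, and for Calm4 Tchh, Lce1c, Sprr2k, Sprr2a1 and Rora, at r from 0.995 to 0.997. Between members, r was 0.993 for Calm5 and Calml3, 0.989 for Calml3 and Calm4 and 0.976 for Calm4 and Calm5. All of these r values rest on 6 arrays that fall into 2 treatment groups, so they mostly restate the difference between the groups. Sprr2 and Lce genes have near-identical copies that a probe may not tell apart.

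The arrays were of unequal quality. Between 62.5% and 71.0% of spots were well above background on the PBS arrays, and between 55.6% and 86.5% on the Anakinra arrays, the highest on Anakinra 2; correlations between arrays ran from 0.995 to 0.997 in the PBS group and from 0.957 to 0.983 in the Anakinra group. All 7 keratinocyte markers were above background on every array, and their summed signal, in multiples of the 75th percentile, ran from 962 to 1082 in PBS and from 923 to 1018 in Anakinra. Of the 7, Krt1 and Krt10 were called higher, at 2.35 and 2.40, though not with a slide block (limma adjusted p = 0.0599 and 0.0938). Summed signals of 8 fibroblast markers, also above background on every array, ran from 9.39 to 11.4 in PBS and from 12.5 to 14.8 in Anakinra, with Lum and Col3a1 called higher. A slide block ended both calls (adjusted p = 0.0555 and 0.142), quantile normalization ended that of Lum (adjusted p = 0.379), and normexp put Lum at 0.51 in place of 1.43. Of the 8 fibroblast markers, 7 had a positive change, 6 did not pass and the lowest change was at -0.38. All Anakinra values lay above all PBS values in 5 of them and below in 1. Summed signals of 7 hair follicle markers ran from 9.18 to 10.3 in PBS and from 11.1 to 13.3 in Anakinra, with Krt79 called higher. The 5 of them that were tested did not share a direction: 3 had a positive change, the lowest was at -1.07 and the median was 0.14. The groups did not overlap in 1 that was higher and in 1 that was lower. For 8 melanocyte markers the sums were 90.9 to 109 and 105 to 114, for 5 endothelial markers 2.02 to 2.13 and 1.83 to 1.97, and for 7 immune markers 2.16 to 2.50 and 1.79 to 2.62, with none called. Cdh5, Kdr and Tek among the endothelial, Ptprc, Itgam, Cd3e and Cd207 among the immune, Lgr5, Krt71 and Krt25 among the hair follicle markers, and the melanocyte gene Tyr were below background on some arrays. The part of these cells in the differences of Calm4, Calm5 and Calml3 was not tested.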

How the data were processed

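Total RNA of 6 keratinocyte cultures was read on 6 Agilent one-colour arrays. Per the file headers, the authors' deposited scanner files hold spot intensity from Agilent Feature Extraction 9.5.3.1, background-subtracted and detrended within each array and not normalised between arrays. Values in the table the authors deposited are log2: each column equals the log2 processed intensity of its array plus 1 constant.

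From the processed intensity, control spots and outlier flags were left out, log2 values were centred on the array's 75th percentile and spots of 1 probe averaged. A probe entered if well above background on all arrays of a group, and the brightest probe stood for a gene. Names were updated through RefSeq genes of GRCm38.p6; the array design gives probe positions on mm8. Anakinra was compared with PBS by limma 3.58.1 in R 4.3.3, two-sided, with Benjamini-Hochberg adjustment over 16493 genes. The fit was also run on simulated data with independent noise. Those data hold no effect of slide, array quality or pairing, so the run cannot show how the fit deals with them. The 3 arrays per group limit the precision. From each list the text names at most 4 called genes, by p, or 2 genes where none is called; Calml4, Ppp3ca and Myo10 were added after their values were seen. Neighbours are the 3 nearest genes on each side, and like genes the 5 highest correlations. The members and the lists were chosen with earlier results of these data known.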

Additional observations from a re-analysis of the deposited data

How the results depend on the processing

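All 5 members kept their direction under each of the 17 alternatives run (scaling, background correction, dim-probe filter, array weights, probe choice, blocks, the authors' table and 6 sets without 1 culture). As a description, since the members were selected on this difference, Calm5 passed in 14, Calml3 in 9 and Calm4 in 7, and Calm2 and Calm3 in 0 of 17. The number of members past the threshold, 3 in the main setting, was 1 with per-array medians, with no filter on dim probes and with the slide as a block, and 0 to 3 with 1 culture left out. The main counts of 160 genes higher and 132 lower were 8 and 49 with medians, 7 and 29 with no filter, which moves the median change of all genes to 0.16, 338 and 240 among genes above background on all 6 arrays, and 18 and 35 with the slide as a block; with 1 culture left out they ran from 1 to 97 and from 7 to 137. The 2 pathway genes became 4 among genes above background on all arrays, 1 with quantile normalization, normexp, array weights or the mean of all probes, 0 with medians, no filter or the slide block, and 0 to 1 with 1 culture left out. The 13 suprabasal genes became 2 with medians, 0 with no filter or the slide block, and 0 to 7 with 1 culture left out. The cause was not tested; fewer cultures alone lower such counts. No label pairs the samples by replicate number. Deviations of same-numbered arrays correlated at 0.41, -0.49 and -0.21, and those of PBS 3 and Anakinra 2 at 0.70. With 3 arrays per group such values cannot decide whether the cultures were paired. A fit with the replicate block called 0 genes higher, 0 lower, 0 members, 0 pathway genes and 0 suprabasal genes in limma, while 1769 genes had an unadjusted p under 0.05. For 28 other genes taken from the lists and the chromosome 13 neighbours by the stated rule, not all of them named in the text, 475 values were recomputed: 387 kept their side of the threshold, 86 lost it and 2 gained it. No value past the threshold in either fit changed sign, but uncalled genes did, among them Slc8b1 (-0.09), Asb13 (-0.29), Cdh1 (-0.13) and Tyrp1 (-0.11) with medians.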
